A study of Mus musculus with 6 samples.

Results

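The cone phototransduction cascade was described here by 10 genes, chosen for their roles in the cone light response and not by a measured value: Opn1sw, Opn1mw, Gnat2, Gnb3, Gngt2, Pde6c, Pde6h, Cnga3, Cngb3 and Arr3. These are 10 of the 52636 genes in the count table. Single-cell RNA sequencing (10x Genomics 3′ chemistry, version 2) was performed on dissociated retinas of male C57BL/6J mice at 12 months of age. The groups were 3 Dram2 wt/wt retinas and 3 Dram2 ko/ko retinas, the latter carrying a constitutive CRISPR/Cas9 deletion of exon 4 of Dram2 in every cell. Replicate 3 of each genotype belonged to batch 1, and replicates 1 and 2 of each genotype belonged to batch 2. The table held 46375 cells, of which 45746 carried one of 5 deposited cell types: photoreceptors, interneurons, glia, mesenchymal cells and retinal pigment epithelium (RPE) cells.

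In cones, a photon activates an opsin, which switches on the cone transducin, a G protein of an alpha, a beta and a gamma subunit. Transducin relieves the inhibitory subunit of the cone phosphodiesterase, the enzyme then hydrolyses cyclic GMP, and the cyclic nucleotide-gated channel of the outer segment closes. Cone arrestin binds the activated opsin and ends its signalling, and many mouse cones carry both the short-wave and the medium-wave opsin, in proportions that vary across the retina.

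Of the 10 genes, Opn1sw, Gnb3 and Pde6h lie on chromosome 6, Opn1mw and Arr3 on the X chromosome, Cnga3 on chromosome 1, Gnat2 on chromosome 3, Cngb3 on chromosome 4, Gngt2 on chromosome 11 and Pde6c on chromosome 19. The stretch of 250 bases before the start of a gene was available from RefSeq (GRCm38.p6) for 6 of the 10 genes. Below are those of both opsins, the transducin alpha subunit and cone arrestin, the genes whose levels within cones are compared most closely further on, each 5′ to 3′ on the strand of its gene. The windows are chr6:29380514-29380763 (minus strand) for Opn1sw, chrX:74127216-74127465 (plus strand) for Opn1mw, chr3:108092816-108093065 (plus strand) for Gnat2 and chrX:100605247-100605496 (plus strand) for Arr3. Capitals mark TAATC or its reverse complement GATTA, the core bound by the photoreceptor homeodomain factor Crx and its relatives.
Opn1sw: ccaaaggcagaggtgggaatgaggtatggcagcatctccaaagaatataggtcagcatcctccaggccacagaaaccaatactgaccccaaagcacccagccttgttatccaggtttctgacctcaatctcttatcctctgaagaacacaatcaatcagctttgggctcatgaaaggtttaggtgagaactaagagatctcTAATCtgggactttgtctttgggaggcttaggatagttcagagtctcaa
Opn1mw: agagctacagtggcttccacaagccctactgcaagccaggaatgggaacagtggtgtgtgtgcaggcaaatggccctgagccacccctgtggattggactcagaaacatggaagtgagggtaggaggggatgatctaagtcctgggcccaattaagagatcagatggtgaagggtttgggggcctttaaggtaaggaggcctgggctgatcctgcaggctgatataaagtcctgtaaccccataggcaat
Gnat2: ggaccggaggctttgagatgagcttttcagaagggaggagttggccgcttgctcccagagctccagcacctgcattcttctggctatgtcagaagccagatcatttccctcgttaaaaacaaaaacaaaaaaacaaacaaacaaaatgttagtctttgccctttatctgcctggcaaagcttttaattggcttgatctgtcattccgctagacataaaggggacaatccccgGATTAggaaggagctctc
Arr3: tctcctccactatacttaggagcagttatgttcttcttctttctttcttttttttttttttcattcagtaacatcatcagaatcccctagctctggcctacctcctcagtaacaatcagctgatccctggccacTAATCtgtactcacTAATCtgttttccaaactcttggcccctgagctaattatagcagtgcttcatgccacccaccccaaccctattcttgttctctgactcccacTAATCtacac
Arr3 held 3 matches, at 116 to 112, 102 to 98 and 10 to 6 bases before the start, Opn1sw held 1 at 49 to 45, and Gnat2 held 1 at 18 to 14. The windows of Opn1mw, Pde6h and Cnga3 held none of these letters. Of 32851 promoter windows of the same length, 6519 (19.8%) held at least 1 match. The letters AGGTCA or TGACCT, the half-site of many nuclear receptors, occurred 2 times before Opn1sw and in no window of the other matched members, against 14.0% of all windows. These matches describe the letters in the windows and were not tested for binding.

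The depth of the libraries set how precisely a gene could be measured. Each retina gave 7014 to 9242 cells and 3463728 to 6563762 unique molecular identifiers (UMIs, each counting 1 captured transcript). Most cells were shallow, with a median of 428 UMIs in the 42359 photoreceptors, 1844 in the 2083 interneurons, 1683 in the 942 glia, 1905 in the 246 mesenchymal cells and 1121.5 in the 116 RPE cells. Levels are given as counts per 1e+06 UMIs (CPM), from the UMIs summed per retina and cell class, and since a 3′ UMI counts a transcript once whatever its length, no length correction was made. In such sums, fewer cells of a type and less RNA per cell cannot be told apart. Dram2 was at 27.8, 34.8 and 56.0 CPM in the wt/wt retinas and 27.4, 34.0 and 53.5 CPM in the ko/ko retinas, but 3′ reads lie outside the deleted exon, so these values check nothing about the genotype. Rod RNA was found in every class, with the 10 rod counterparts of the cascade (Gnat1, Sag and others) summing to 12284 CPM even in glia. Doublets were not removed, and the cell names carried no barcodes, so barcodes shared between libraries could not be counted.

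Because the deposited annotation has 1 photoreceptor type for rods and cones together, photoreceptors were clustered again with the 10 genes left out, and 1 cluster of 580 cells was called cone-like. In it 7 of 7 other cone markers, among them Kcne2, Thrb and Rxrg, were raised, and none of the rod markers was. Rxrg, a nuclear receptor of cones, was at 81.9 CPM there, against 4.51 CPM in the other photoreceptors. The 9 rod markers still summed to 28590 CPM. By replicate number the cluster held 89, 98 and 128 wt/wt cells and 40, 123 and 102 ko/ko cells, at a median of 1981 UMIs per cell. It was 1.37% of the photoreceptors and yet held 53.8% of the photoreceptor UMIs of the 10 genes. Of all 152988 UMIs of these genes in the table, 72329 (47.3%) came from it. The cluster did not hold all cells rich in cone RNA, since 256 other photoreceptors had at least 10 Opn1sw UMIs. At 1000 UMIs per cell, 176 of 2279 other photoreceptors held both opsins, against 232 of 496 cone-like cells, and in ko/ko replicate 1 there were 44 outside the cluster and 16 inside. The part of these cells in the low cone-like count of that retina was not tested. The boundary was not sharp at low depth either, since of the 84 cone-like cells under 1000 UMIs only 27 had UMIs of at least 2 of the 8 members that are not opsins, against 475 of the 496 deeper cells.

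All 10 genes had their highest level in the cone-like cells. Summed, they took 61694 CPM there, 3120 CPM in the other photoreceptors and 666 CPM in glia. Among the opsins, Opn1sw stood at 17279 ± 2939 CPM (mean ± SD, n = 6 retinas) and Opn1mw, the medium-wave opsin, at 3572 ± 661 CPM. The transducin subunits were of similar order. The gamma subunit Gngt2 was at 7264 ± 1262 CPM, the beta subunit Gnb3 at 4550 ± 597 CPM and the alpha subunit Gnat2 at 4260 ± 268 CPM, and the last had the smallest spread between retinas relative to its mean of these 3. The phosphodiesterase showed a wide gap between its parts. Pde6h, the inhibitory subunit, was at 15150 ± 1914 CPM, and Pde6c, the catalytic subunit, at 1135 ± 198 CPM. The channel genes were the least abundant, with Cngb3 (the beta subunit) at 361 ± 113 CPM and Cnga3 (the alpha subunit that forms the pore) at 74.7 ± 19.0 CPM. Arr3, cone arrestin, was at 8672 ± 2003 CPM. These levels are a description with no test, as cone identity is defined by such genes.

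Across the 5 deposited types the genes fell into groups by where they were highest. Photoreceptors stood first, with no overlap between retinas and the next type, for Opn1sw (1680 ± 259 CPM, 3.03-fold over interneurons), Opn1mw (366 ± 68.5 CPM, 3.55-fold), Pde6c (107 ± 20.6 CPM, 2.69-fold), Pde6h (1534 ± 510 CPM, 3.20-fold) and Arr3 (906 ± 250 CPM, 3.23-fold), n = 6 each. Gnat2 was also highest in photoreceptors, at 424 ± 85.4 CPM, but interneurons at 356 ± 87.2 CPM overlapped it. Gnb3 had the opposite order, with 1498 ± 300 CPM in interneurons and 565 ± 80.8 CPM in photoreceptors, a 2.65-fold difference without overlap. Gngt2 (804 ± 162 against 745 ± 220 CPM) and Cngb3 (39.9 ± 15.5 against 34.2 ± 12.4 CPM) were nominally higher in interneurons and overlapped photoreceptors. Cnga3 was low throughout, with 7.31 ± 2.81 CPM in photoreceptors and 3.91 ± 6.10 CPM in mesenchymal cells, which overlapped.

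Glia, mesenchymal cells and RPE cells held low levels of most members and overlapped one another for all 10. The highest of their means was Pde6h in mesenchymal cells, at 248 ± 247 CPM, and its spread came from 1 retina. In wt/wt replicate 2, 1 of the 49 mesenchymal cells held 61 of the 68 Pde6h UMIs, and 1 held 45 of the 50 Arr3 UMIs. The 2 cells with most Arr3 held 47 of the Arr3 UMIs, and without these 2 cells Arr3 went from 534 to 34.3 CPM there. Gngt2 was at 246 ± 109 CPM in mesenchymal cells, against 72.5 ± 43.1 CPM in glia, with overlap. Cnga3 had no UMI in any retina in glia or RPE cells, which allows up to 1.93 CPM in glia and 19.8 CPM in RPE cells (3 UMIs of the class total, counting error only). Cngb3 had none in RPE cells, with the same limit of 19.8 CPM.

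**Figure D1:**
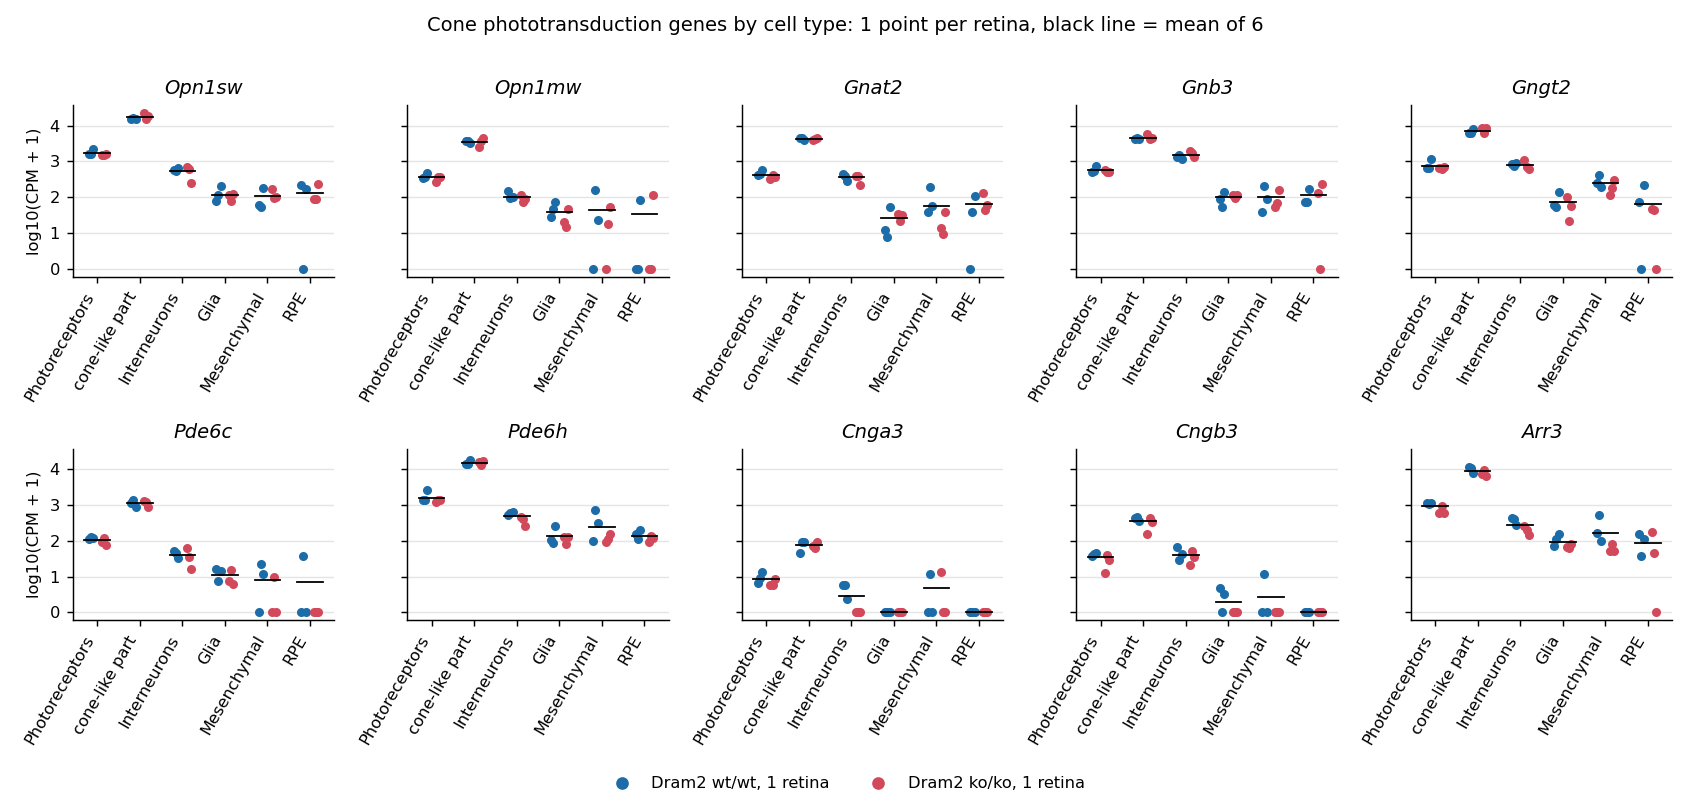
Level of each of the 10 cone cascade genes, as log10(CPM + 1) of summed UMIs, in the 5 deposited cell types and in the cone-like cells, with 1 point per retina (colour marks the genotype) and the mean of 6 retinas as a black line. The cone-like cells lie highest for every gene, and Gnb3 is the member for which interneurons (1498 CPM) lie clear above photoreceptors as a whole (565 CPM).

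At the level of single cells, most cone-like cells held several members at once. Each cell was thinned to 1000 UMIs, and shallower cells were left out. That kept 496 of 580 cone-like cells, 1488 of 1657 bipolar-like interneurons and 770 of 942 glia. Of the 41779 other photoreceptors only 2279 were kept, so their share describes the deepest of them. At least 4 of the 8 members other than the opsins were seen in 95.0% of the cone-like cells kept. The share was 13.4% in the other photoreceptors, 5.98% in the bipolar-like interneurons and 0.260% in glia. Pde6h was detected in 96.0% of the thinned cone-like cells, Gngt2 in 95.0%, Arr3 in 94.8%, Gnat2 in 94.0% and Gnb3 in 92.9%. Pde6c reached 63.5%, Cngb3 33.9% and Cnga3 6.85%, in the order of their levels. The opsins departed from that order. Opn1sw, the most abundant member, was seen in only 67.7% of these cells, fewer than the 74.4% for Opn1mw, whose pooled level was 3696 CPM against 16591 CPM. Unthinned, Opn1sw was seen in 66.7% of the 580 cells and Opn1mw in 72.6%. Glia, which should lack the opsins, gave a background, and whether it came from free RNA or doublets was not tested. Thinned alike, 12.1% of them held a UMI of Opn1sw and 3.38% of Opn1mw (18.6% and 6.90% unthinned, at a median of 1683 UMIs).

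Co-detection of Opn1sw and Opn1mw depended on which photoreceptors were counted. Of all 42359 photoreceptors, 625 had UMIs of both opsins, 3263 of Opn1sw alone, 1067 of Opn1mw alone and 37404 of neither. That was 4.02 times the 155 double-positive cells that independent detection would give in this mixture of rods and cones. Within the 580 cone-like cells, 300 had both, 87 had Opn1sw alone, 121 had Opn1mw alone and 72 had neither, and 281 would have both under independence (1.07 times). Cells with both were thus 59.1% of the cone-like cells with any opsin UMI. Thinned to 1000 UMIs, 232 of 496 cells had both, 104 Opn1sw alone, 137 Opn1mw alone and 23 neither, which put both at 49.0% of opsin-positive cells and 0.928 times independence. Requiring 2 UMIs of each opsin in unthinned cells left 234 of 580 cells with both. When cells were instead chosen by UMIs of at least 2 of the 8 other members, 547 of 2536 photoreceptors had both (1.92 times independence), and 403 of 1069 at 1000 UMIs (1.16 times). For comparison, 7 of 770 glia and 21 of 1488 bipolar-like cells held both opsins at 1000 UMIs. At the level in glia, a cell of 1981 UMIs would hold 0.261 Opn1sw and 0.0893 Opn1mw UMIs, against means of 32.9 and 7.32 at the cone-like level.

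The mixture of the opsins was read from the 489 cone-like cells with at least 5 opsin UMIs. Opn1sw made up all opsin UMIs in 79 cells, from 90% to under 100% in 144 cells, from 50% to under 90% in 102 cells, from 10% to under 50% in 26 cells and less than 10% in 138 cells. The fewest cells thus lay between 10% and 50%, and 28.2% lay under 10%. By retina, the share under 10% was 32.1%, 29.1% and 33.0% in wt/wt and 6.06%, 25.2% and 29.8% in ko/ko. The low value belonged to ko/ko replicate 1, with 2 of 33 cells (exact 95% interval 0.743% to 20.2%, counting error only), which was also the retina with the fewest cone-like cells.

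**Figure D2:**
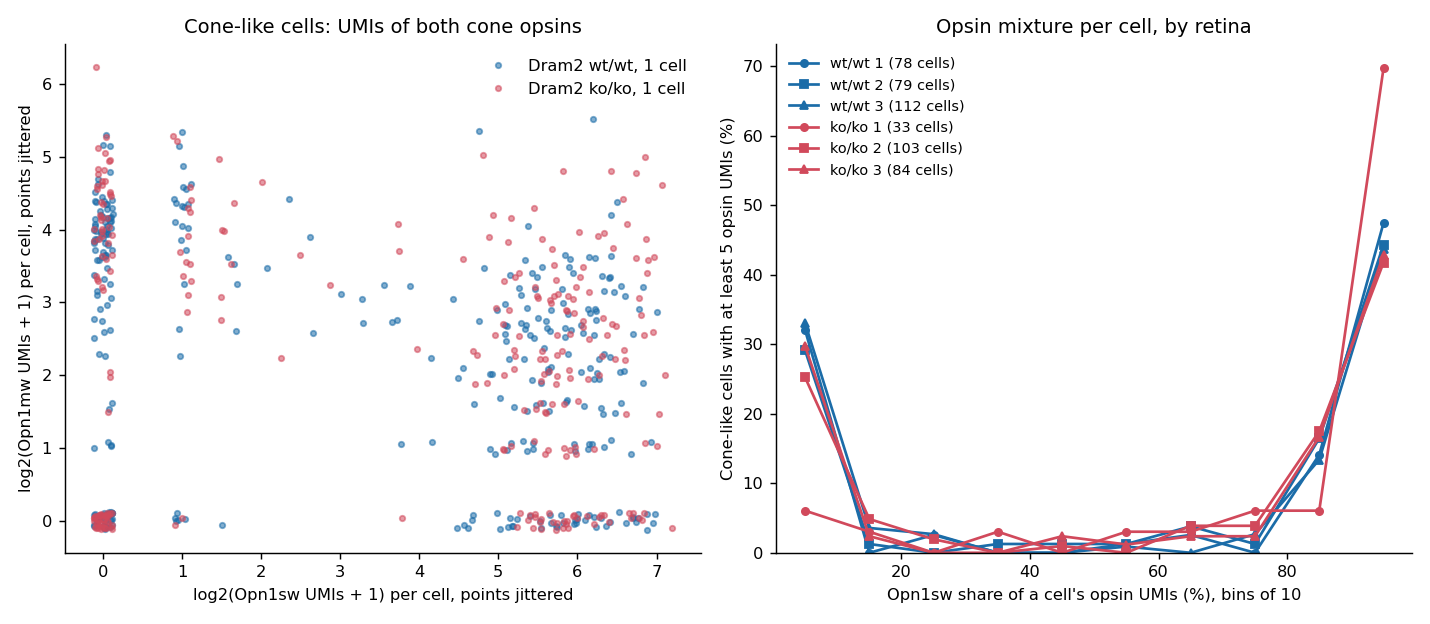
Left, log2(UMIs + 1) of Opn1sw (x axis) against Opn1mw (y axis), 1 jittered point per cone-like cell coloured by genotype. Right, the percentage of cone-like cells with at least 5 opsin UMIs in bins of 10% of the Opn1sw share, 1 line per retina. Cells crowd at high Opn1sw shares and below 10% (138 of 489 cells), and ko/ko replicate 1 stands apart in both end bins, with 6.06% of its cells below 10%.

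Cells rich in one opsin or the other were then compared for the other 8 members. Opn1sw-rich cells (at least 90% Opn1sw, 223 cells, median 2000 UMIs) and Opn1mw-rich cells (under 50%, 164 cells, median 2213 UMIs) came from all 6 retinas, with only 4 Opn1mw-rich cells in ko/ko replicate 1. Arr3 differed most in a steady direction. It was at 8869, 7307 and 5690 CPM in Opn1sw-rich cells of the wt/wt retinas and 7024, 7339 and 4837 CPM in those of the ko/ko retinas. In Opn1mw-rich cells it was at 15993, 15879 and 10807 CPM in wt/wt and 7147, 12606 and 9162 CPM in ko/ko. Arr3 was therefore higher in the Opn1mw-rich cells of 6 of 6 retinas, 1.82-fold when pooled, and the smallest gap was that of ko/ko replicate 1 with its 4 cells. Gnb3 (0.829-fold) and Gngt2 (0.882-fold) were lower in the Opn1mw-rich cells of 6 of 6 retinas. Gnat2 (1.01-fold), Pde6h (1.07-fold), Pde6c (0.977-fold) and Cngb3 (0.986-fold) were higher in some retinas and lower in others. Cnga3, at 1.45-fold, rested on few UMIs and was higher in 4 of 6 retinas. These cells were grouped on measured opsin counts, and the comparison is given without a test.

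**Figure D3:**
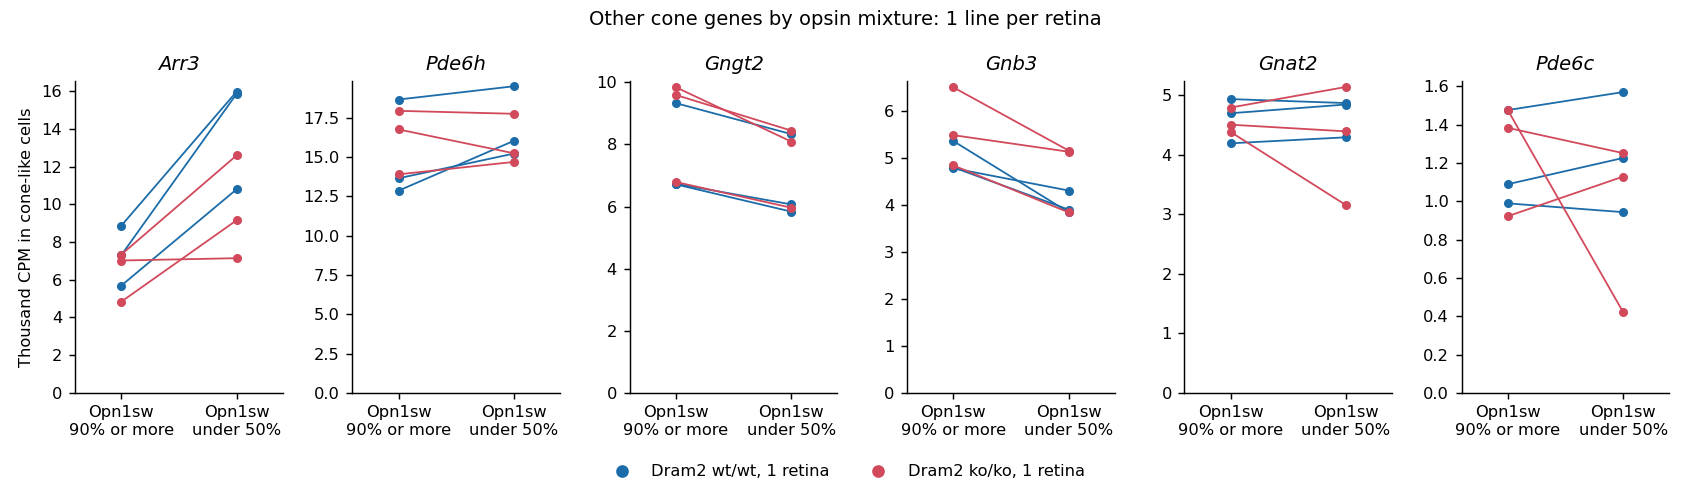
Level in CPM (axes in 1000 CPM, starting at 0, each gene on its own scale) of 6 cascade members in cone-like cells with at least 90% Opn1sw among their opsin UMIs and in those with under 50%, with 1 line per retina coloured by genotype. The Arr3 lines rise in 6 of 6 retinas, and those of Gnb3 and Gngt2 fall in 6 of 6.

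The second question was which of these genes bipolar cells also express. Bipolar cells relay photoreceptor signals to the inner retina, and 8 interneuron clusters with raised bipolar markers, 1657 of the 2083 interneurons at a median of 1766 UMIs, were called bipolar-like. Set against the cone-like level of the same gene, Gnb3 stood at 41.3%, Gngt2 at 13.9%, Cngb3 at 13.1% and Gnat2 at 9.37%. The other members formed a narrow band, with Opn1sw at 3.57%, Pde6c at 3.54%, Pde6h at 3.50%, Arr3 at 3.39% and Cnga3 at 2.52%, and Opn1mw between the last 2 of these values. In each of the 6 retinas, the shares of Gnb3, Gngt2, Gnat2 and Cngb3 were above those of Opn1sw, Pde6h and Arr3, the abundant cone transcripts. In glia, Gnb3 also stood above those 3 in 6 of 6 retinas, at 110 CPM, whereas Gngt2 did so in 2, Cngb3 in 1 and Gnat2 in 0. In amacrine-like interneurons Gnb3 did so in 5 retinas, Gngt2 in 2, Gnat2 in 1 and Cngb3 in 0. Those were only 13, 18 and 111 cells in wt/wt and 2, 16 and 110 in ko/ko. The 2 cells of ko/ko replicate 1 held no UMI of any member, so that retina could not count as above. An unnamed interneuron cluster of 44 cells had Cngb3 at 15.1% of the cone-like level, from 12 UMIs. Its Opn1sw stood at 3.33%, so such a share of Cngb3 was not particular to the bipolar-like cells. Another cluster of 112 cells, with 6 bipolar and 4 amacrine markers raised, had Gnat2 at 10.3%. Its cone transcripts lay close to that value, with Opn1mw at 9.09%, Pde6h at 7.38%, Arr3 at 6.95% and Opn1sw at 6.75%.

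The UMIs of these genes were spread unevenly over cells. In the bipolar-like cells, 25 cells with at least 10 Opn1sw UMIs held 78.1% of all Opn1sw UMIs, and cells with at least 10 UMIs of Pde6h or of Arr3 held 69.7% and 64.0% of theirs. The same share was 21.3% for Gnb3, 20.3% for Gngt2 and 17.8% for Gnat2. It was 37.2% for Opn1mw, and no cell held 10 UMIs of Pde6c, Cnga3 or Cngb3, which are too low for this measure. Whether those few cells were doublets with cones was not tested. In the 792 bipolar-like cells with no UMI of Opn1sw, Opn1mw, Pde6h, Arr3 or Pde6c, a set chosen after the values were seen, Gnb3 was at 1791 CPM (40.7% of the cone-like level), Gngt2 at 795 CPM, Gnat2 at 301 CPM (7.06%) and Cngb3 at 51.5 CPM (13.6%). In the 507 glia without those UMIs, Gnb3 was at 108 CPM, Gngt2 at 75.8 CPM, Gnat2 at 30.6 CPM and Cngb3 at 1.33 CPM. At 1000 UMIs per cell, Gnb3 was seen in 70.7% of bipolar-like cells and 9.35% of glia, Gngt2 in 48.1% and 8.05%, Gnat2 in 25.4% and 2.86%, and Cngb3 in 4.64% and 0 of 770 glia, which allows a share of up to 0.390% of cells with a UMI at this depth but sets no limit on cells expressing it. Unthinned, glia held 2 Cngb3 UMIs.

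The bipolar-like clusters did not share these genes evenly. A pair of clusters (518 cells, called Grik1-rich) had Grik1, a kainate receptor subunit of OFF cone bipolar cells, among their 10 leading genes, at 1204 CPM, with Grm6, the glutamate receptor of ON bipolar cells, at 14.0 CPM. The other 1139 cells had Grik1 at 14.0 CPM and Grm6 at 595 CPM. As medians over retinas, Gnb3 stood at 16.6% of the cone-like level in the Grik1-rich cells and at 52.8% in the others. The order was reversed for Gngt2 (27.0% and 6.75%), Gnat2 (20.8% and 4.61%) and Cngb3 (30.6% and 6.80%). In cells without UMIs of the 5 cone genes above, Gnb3 was at 374 CPM in 235 Grik1-rich cells and 2318 CPM in 557 others, Gngt2 at 1557 and 511 CPM, Gnat2 at 636 and 177 CPM, and Cngb3 at 118 and 26.8 CPM. Single clusters departed from the split. In the same cells without cone RNA, Cngb3 was at 187 CPM in one Grik1-rich cluster (152 cells) and 14.4 CPM in the other (83 cells), and its highest level, 216 CPM, was in a cluster of 67 cells that was not Grik1-rich. Gngt2 was at 1472 CPM in 1 cluster that was not Grik1-rich (112 cells), within the 1236 to 1771 CPM of the Grik1-rich pair. The split by Grik1 was added after the data were seen. The other cone transcripts were also higher in the Grik1-rich cells, with medians of 8.98% and 1.16% for Opn1sw, 8.34% and 1.05% for Pde6h, 7.06% and 1.14% for Arr3 and 5.64% and 1.57% for Opn1mw, and Pde6c had the same direction. For Opn1sw, Pde6h and Arr3 the ratio between the cell groups was larger than for Gngt2, Gnat2 or Cngb3. Cells with at least 10 UMIs of the gene held 90.6% of the Opn1sw, 85.9% of the Pde6h and 83.4% of the Arr3 UMIs of the Grik1-rich cells.

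**Figure D4:**
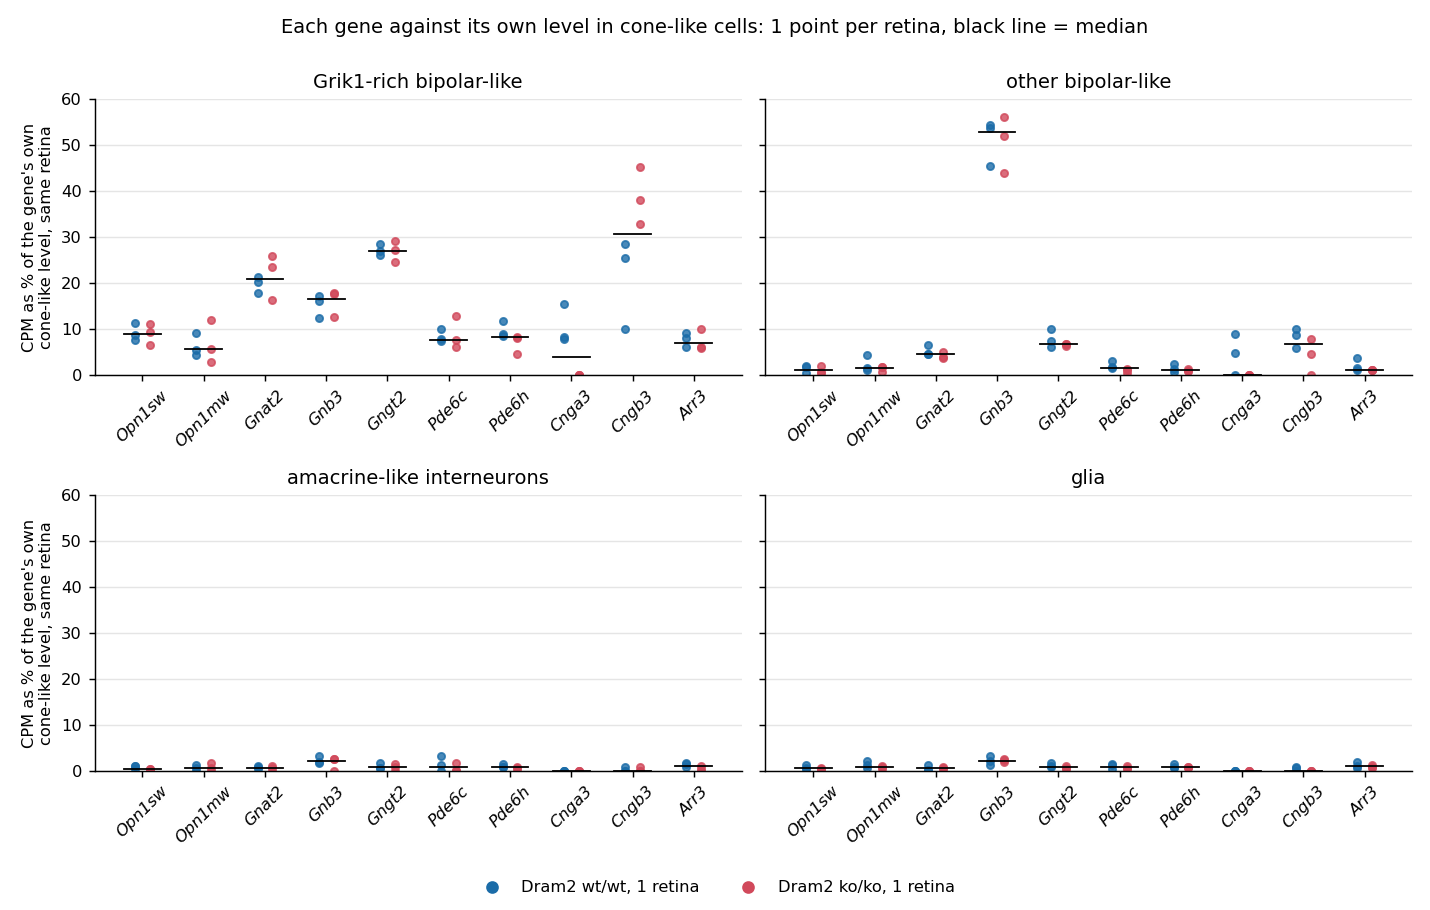
Level of each member as a percentage of its own cone-like level in the same retina, in Grik1-rich bipolar-like, other bipolar-like and amacrine-like cells and glia, with 1 point per retina (colour marks the genotype) and the median as a black line. Amacrine-like points rest on 2 to 111 cells per retina. Gnb3 stands out in the other bipolar-like cells (median 52.8%), and Cngb3, Gngt2 and Gnat2 in the Grik1-rich cells (30.6%, 27.0% and 20.8%), where Cngb3 came mainly from 1 of the pair of clusters (147 against 28.7 CPM over all their cells).

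Outside the cascade, the genes whose levels followed the summed members most closely over 42 sums of retina and class, out of 15697 genes ranked, were Clca1 (Pearson's r of log2(CPM + 1) = 0.940), Otop3 (0.936), Gm42697 (0.935), Nphs1 (0.929), Atoh7 (0.915), Gm11877 (0.908), Fabp7 (0.894) and Cckbr (0.890). All 8 were far less abundant than most members. Gm42697 was the highest in cone-like cells, at 147 CPM, and Atoh7, a transcription factor of retinal progenitors, the lowest at 29.9 CPM. Sums of 1 retina share its library, so these values are a description over sums that are not independent.

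Dram2 wt/wt and ko/ko retinas were compared for each member in 7 classes with edgeR's quasi-likelihood test on UMIs summed per retina, with p-values adjusted over all genes by the Benjamini-Hochberg method. No member passed an adjusted p of 0.05 in any class. The background was the same, with 0% of the 13053 genes called in photoreceptors, 0% of 3881 in cone-like cells, 0% of 7698 in interneurons, 0% of 7219 in bipolar-like cells, 0% of 4130 in glia, 0% of 1717 in mesenchymal cells and 0% of 308 in RPE cells. The filter on low counts left 10, 10, 9, 9, 5, 2 and 0 of the members to test in these classes, in that order. An unadjusted p under 0.05 (edgeR) was found for 1 of 10, 0 of 10, 2 of 9, 3 of 9, 0 of 5 and 1 of 2 members. Over all genes it was found for 109 of 13053, 49 of 3881, 86 of 7698, 105 of 7219, 51 of 4130, 150 of 1717 and 11 of 308. Except in mesenchymal cells, that was a smaller share than the 0.05 a calibrated test gives without any difference. These tests were thus cautious, and 0 calls do not show equal levels. DESeq2 and limma-voom also called no member.

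In photoreceptors as a whole all 10 members had a lower level in ko/ko, with a median log2 difference of -0.33, beside -0.01 over all genes tested. Without wt/wt replicate 3 the count was 8 of 10 and the median -0.13, and in batch 2 alone 8 of 10 and -0.17. Arr3 was at 1123, 1061 and 1106 CPM in wt/wt and 605, 958 and 579 CPM in ko/ko. It was the only member whose groups did not overlap, with ko/ko below wt/wt, as was so for 3.72% of all genes, and none had ko/ko above wt/wt, as 1.83% of all genes did. Its log2 difference was -0.59 ± 0.24 (SE), with an unadjusted p of 0.0384 and an adjusted p of 0.998 by edgeR. Gnat2 was at 418, 459 and 566 CPM in wt/wt and 313, 419 and 372 CPM in ko/ko, with overlap. Pde6h was at 1346, 1369 and 2566 CPM in wt/wt and 1198, 1352 and 1374 CPM in ko/ko, so that wt/wt replicate 3 stood apart from the other 5 retinas. Gngt2 had the same shape, with 1192 CPM in wt/wt replicate 3 and 634 to 704 CPM elsewhere. That retina also had the highest share of cone-like cells, 2.15% of its photoreceptors. In batch 2 alone the log2 difference was -0.08 for Pde6h and -0.47 for Arr3. The 10 rod counterparts were all higher in ko/ko in the same fit, with a median of 0.23 and 0 called. The 7 cone markers that are no members summed to 373 to 392 CPM in the wt/wt and 279 to 379 CPM in the ko/ko retinas, with overlap, and the part of cell proportions in these values was not tested. In the photoreceptors outside the cone-like cluster, a class without a fit, all 10 members had a lower mean CPM in ko/ko. Arr3 was at 536 against 372 CPM, Pde6h at 834 against 647 CPM and Gnb3 at 346 against 339 CPM. There Arr3, Cngb3 and Cnga3 (66 UMIs in all) had every ko/ko retina below every wt/wt retina. The share of all genes with such a gap was not computed for these cells.

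Within the cone-like cells the members divided evenly, with 5 higher and 5 lower in ko/ko, a median log2 difference of 0.01, and -0.00 over all genes. None had groups that did not overlap, against 3.84% of genes with ko/ko below and 3.04% with ko/ko above. Arr3 was at 11115, 10736 and 7629 CPM in wt/wt and 7095, 9226 and 6233 CPM in ko/ko, a log2 difference of -0.38 ± 0.23 (unadjusted p = 0.116, edgeR), and -0.41 in batch 2 alone (unadjusted p = 0.0408, adjusted p = 0.999). Both batch 1 retinas were low for Arr3, and so was ko/ko replicate 1. Opn1sw was at 15365, 16486 and 14841 CPM in wt/wt and 22442, 15496 and 19045 CPM in ko/ko, a log2 difference of 0.29 ± 0.20 that was 0.17 without ko/ko replicate 1 and 0.44 without ko/ko replicate 2. Opn1mw was at 3655, 3775 and 3362 CPM in wt/wt and 2483, 3635 and 4520 CPM in ko/ko, so that ko/ko replicate 1 was the highest retina for Opn1sw and the lowest for Opn1mw. Cngb3 was also lowest in ko/ko replicate 1, at 440, 445 and 348 CPM in wt/wt and 155, 443 and 334 CPM in ko/ko. That low value rests on few Cngb3 UMIs, as the 40 cone-like cells of this retina held 70895 UMIs of all genes. In ko/ko replicate 3, where Opn1mw was highest, Cngb3 was below its wt/wt values. Gnat2 varied least, from 3950 to 4605 CPM, with a log2 difference of -0.01 ± 0.21. The 10 rod counterparts had a median log2 difference of 0.30 in the cone-like cells, with 0 called.

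**Figure D5:**
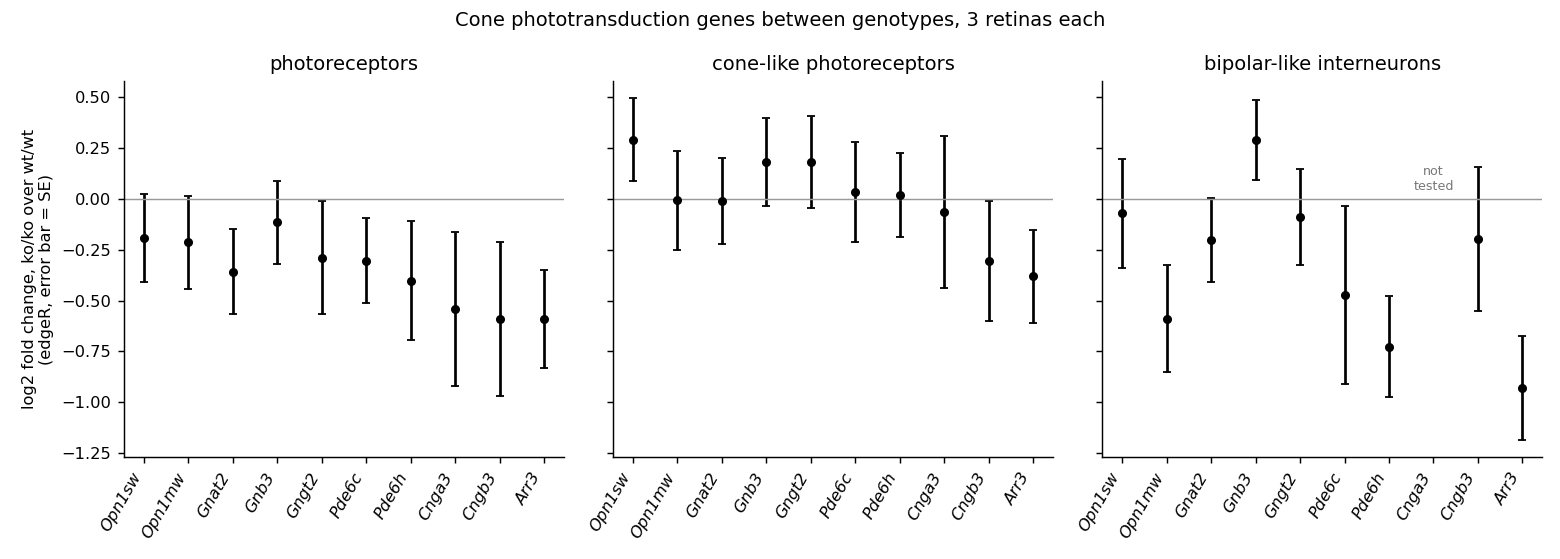
Difference between ko/ko and wt/wt of each member on the log2 scale (edgeR, bars show 1 SE) in photoreceptors, cone-like cells and bipolar-like interneurons, from 3 retinas per genotype. All 10 members lie below 0 in photoreceptors and 5 of 10 in cone-like cells, and none passed the adjusted threshold.

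In the bipolar-like cells 8 of the 9 members tested were lower in ko/ko, with a median of -0.20 beside 0.01 over all genes (6 of 9 in batch 2 alone). By mean CPM within the Grik1-rich cells, Opn1sw, Gnat2, Gnb3, Gngt2, Pde6c and Cngb3 were higher in ko/ko, all with overlap. Opn1mw, Pde6h, Cnga3 and Arr3 were lower there, and in the other bipolar-like cells Gnb3 alone was higher. In the bipolar-like cells as a whole, Arr3 was at 438, 433 and 337 CPM in wt/wt and 271, 219 and 143 CPM in ko/ko, a log2 difference of -0.93 ± 0.26 (unadjusted p = 0.00327, adjusted p = 1.00, edgeR). Pde6h was at 556, 647 and 791 CPM in wt/wt and 491, 428 and 277 CPM in ko/ko, a log2 difference of -0.73 ± 0.25 (unadjusted p = 0.0129) that was -0.37 in batch 2 alone. In both genes all ko/ko retinas lay below all wt/wt retinas, as in 3.67% of genes tested. Gnb3, the member with the highest level there, was the one that lay above, as in 3.21% of genes, with 1406, 1751 and 1782 CPM in wt/wt and 2060, 1871 and 1992 CPM in ko/ko (log2 difference 0.29 ± 0.20, unadjusted p = 0.170, and 0.19 without wt/wt replicate 1). Opn1mw had an unadjusted p of 0.0443 at -0.59 ± 0.26, with overlap. Cnga3, too low to test, had 5.12, 5.48 and 2.29 CPM in wt/wt and 0 in the ko/ko retinas, from 6 UMIs in all. As given above, most Arr3 and Pde6h UMIs of this class lay in a few cells with at least 10 of them, and the part of those cells in these differences was not tested. Grik1-rich cells were 89 of 243, 76 of 221 and 141 of 410 bipolar-like cells in wt/wt. They were 48 of 156, 73 of 252 and 91 of 375 in ko/ko, a smaller share in every ko/ko retina than in any wt/wt retina. Within the Grik1-rich and within the other bipolar-like cells, the genotypes overlapped for Gnb3 and Pde6h. For Arr3 they overlapped in the Grik1-rich cells only. In the other bipolar-like cells Arr3 and Pde6c (36 UMIs) had every ko/ko retina below every wt/wt retina, as did Cnga3 (4 UMIs) in the Grik1-rich cells. The share of all genes with such a gap was not computed for either group. The part of the Grik1-rich share in the differences was not tested. In all interneurons Arr3 differed by -0.85 ± 0.28 (unadjusted p = 0.0132) and Pde6h by -0.63 ± 0.25 (unadjusted p = 0.0281), again with 0 members called by edgeR. The latter was -0.34 in batch 2 alone and -0.40 without ko/ko replicate 3. Of 9 genes of the ON bipolar cascade, 8 could be tested in these classes and 0 were called. The same held for the shutoff and calcium feedback genes, of which 10 of 11 were tested in cone-like cells and 11 in photoreceptors, with 0 called. In glia Arr3 differed by -0.70 ± 0.33 (unadjusted p = 0.0531), and by -0.41 without wt/wt replicate 3. In mesenchymal cells Pde6h differed by -1.70 ± 0.59 (unadjusted p = 0.0149, adjusted p = 0.484), where 1 cell of wt/wt replicate 2 held 61 of its 136 UMIs. Without that retina the difference was -0.86.

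Proportions were compared between genotypes by exact permutation tests over retinas, two-sided, which with 3 against 3 cannot give a p below 0.1, and were adjusted over the 3 tests. Cone-like cells were 1.27%, 1.41% and 2.15% of photoreceptors in wt/wt and 0.605%, 1.64% and 1.23% in ko/ko, or 1.61 ± 0.473% and 1.16 ± 0.522% (n = 3 each, exact p = 0.400, adjusted p = 0.800). The difference was -0.450 percentage points between the means of the retinas, -0.215 in batch 2 and -0.921 in batch 1, with overlap. When photoreceptors were instead counted by UMIs of at least 2 of the 8 members that are not opsins, the shares were 5.39%, 4.81% and 11.2% in wt/wt and 4.67%, 5.62% and 5.15% in ko/ko. The difference was then -1.97 points, with 0.0466 in batch 2 and -6.01 in batch 1, so its direction turned in batch 2. Among opsin-positive cone-like cells thinned to 1000 UMIs, 52.6%, 50.7% and 41.1% held both opsins in wt/wt and 50%, 48.5% and 55.6% in ko/ko (exact p = 0.600, adjusted p = 0.800). The difference of 3.22 points was -2.42 within batch 2 and 14.5 within batch 1, so the batches differed in direction. Other countings gave a higher share in ko/ko in both batches. The difference was 4.42 points at 500 UMIs per cell (4.93 in batch 2 and 3.39 in batch 1), 8.63 points without thinning (8.41 and 9.08) and 9.30 points with 2 UMIs of each opsin (9.18 and 9.54). In these 3 countings the groups did not overlap (exact p = 0.1 each, the smallest p possible). With cells chosen by at least 2 of the 8 other members, it was 11.3 points (7.09 and 19.7, exact p = 0.200), with overlap. Opn1sw made up 80.8%, 81.4% and 81.5% of the opsin UMIs of cone-like cells in wt/wt and 90%, 81.0% and 80.8% in ko/ko (exact p = 0.800, adjusted p = 0.800). That difference of 2.72 points came from ko/ko replicate 1, and without it the difference was -0.319 points. It was 4.44 points in batch 2 and -0.712 in batch 1.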

How the data were processed

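Retinas were digested with papain and sequenced as 3′ libraries. According to the methods, the authors made the UMI counts with Cell Ranger 3.1.0 from exonic reads on mm10 (GRCm38) and assigned the cell types after clustering integrated data with Seurat. No doublet step is stated. The deposited values are raw counts per gene and cell. The 10 members and all gene lists were chosen with earlier results of these data known.

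Counts were summed per retina and class. Photoreceptors and interneurons were clustered again (scanpy 1.11.5, Leiden resolution 1, 2000 variable genes, 30 principal components, members left out). A cluster was named from markers where at least 3 of a class were raised 2-fold. These also had to be at least 2 times as many as those of any other class. No other class could have more markers among the 10 leading genes, and clusters that failed stayed unnamed. Shares of cells with a UMI were taken after thinning to 1000 UMIs. Genotypes were compared with edgeR 4.0.16 (R 4.3.3) on genes that passed filterByExpr, without a batch term. Alternatives were limma-voom (limma 3.58.1), DESeq2 1.42.0, a batch or replicate term, other size factors, no filter, stricter cells and each retina left out. Batch 2 alone, the split by Grik1 and the cells without cone RNA were added after the data were seen. The test recovered 98.8% of 165 genes changed by 2 on the log2 scale in data drawn to resemble the cone-like sums. Those data held no batch effect. Changes as small as those of the members, such as -0.38 for Arr3 in cone-like cells, were not simulated, so the recovery says nothing about them. The labels do not say more about the replicates than that they are separate retinas, so p-values measure the spread between these samples. The rule named the 10 members and the 8 genes nearest to their summed pattern. Markers of cell classes, rod counterparts and Dram2 are named beside the results they bear on.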

Additional observations from a re-analysis of the deposited data

Results flagged for a closer look

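The 629 cells without a deposited type, which entered no comparison and had a median of 506 UMIs, held 386 UMIs of the 10 members. They are given because these cells lie outside the comparisons, and not as a raised level. Summed, the members were at 1018 CPM there, between glia (666 CPM) and the other photoreceptors (3120 CPM). Their rod markers summed to 92760 CPM, against 80967 CPM in the other photoreceptors and 10937 CPM in glia. Pde6h was at 261 CPM, Gnb3 at 222 CPM, Opn1sw at 161 CPM and Arr3 at 148 CPM, while Cnga3 and Cngb3 had no UMI, which allows up to 7.91 CPM of each (3 UMIs of the class total).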

How the results depend on the processing

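In photoreceptors, cone-like cells, interneurons, bipolar-like cells and glia, 0 members were called under each of 14 alternatives (edgeR, DESeq2 and limma-voom). The filter left none to test in RPE cells, and the tests of shares could not pass the threshold at 3 against 3, so neither bears on stability. Of 153 alternatives for single genes, 152 kept the direction and the side of the threshold. They cover only picked genes in each class, mostly those with the larger differences in these same data and adjusted p-values far above the threshold. The count therefore says little about stability. The members that changed direction in photoreceptors without wt/wt replicate 3 or in batch 2 alone, as given above, are not among them. In mesenchymal cells 2 members were called with no filter on low counts (Arr3 and Pde6h, the latter at -1.68 with an adjusted p of 0.0333 by edgeR) and 1 with batch 2 alone, against 0 otherwise. In wt/wt replicate 2, as described above, 1 cell holds 45 of the 89 Arr3 UMIs and 1 cell holds 61 of the 136 Pde6h UMIs. The difference in the share of cells with both opsins, 3.22 points, was -2.42 points in batch 2 alone and from -0.311 (without wt/wt replicate 3) to 5.47 points when each retina was left out, but 4.42 points at 500 UMIs, 8.63 unthinned, 9.30 with 2 UMIs of each opsin and 11.3 in cells chosen by 2 of 8 members. With retinas left out, the Opn1sw share of opsin UMIs ranged from -0.319 (without ko/ko replicate 1) to 4.29 points, and the share of cone-like cells from -0.692 to -0.174 points. The former was 8.58 points as a mean over cells and 0.234 in cells chosen by 2 of 8 members, and the latter -1.97 in such cells and -1.01 in stricter cells. The cause was not tested. Adjusted p-values of Arr3 ranged from 0.127 to 1.00 in bipolar-like cells and from 0.697 to 1.00 in photoreceptors.

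Same-numbered retinas did not all deviate together in photoreceptors (correlations of -0.07, 0.54 and 0.52 for replicates 1, 2 and 3). In interneurons all 3 were over 0.1 (0.105, 0.34 and 0.577), and the labels give no shared litter or day. Differently numbered retinas of batch 2 also deviated together, with 0.503 in photoreceptors and 0.328 in interneurons for wt/wt replicate 1 and ko/ko replicate 2. Across batches, wt/wt replicate 3 and ko/ko replicate 2 gave -0.651 and -0.513. Deviations were taken from the mean of the 3 retinas of a genotype. The positive values of wt/wt replicates 1 and 2 with ko/ko replicate 2 therefore force this negative sign, which adds nothing about batch. Replicates 3 are the only retinas of batch 1, so shared number and shared batch cannot be told apart there. With the replicate number as a block, 0 members were called in any class, and Arr3 differed by -0.86 in interneurons (adjusted p = 0.225, edgeR) and by -0.96 in bipolar-like cells (adjusted p = 0.149). Photoreceptors at a median of 428 UMIs limit what can be seen of the channel genes, as Cnga3 had 157 UMIs in all of them.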
